A study of Rattus norvegicus with 4 samples.

Results

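Kinesins are motor proteins that use ATP to work along or upon microtubules. Most carry vesicles, mitochondria or protein complexes through the cytoplasm or the cilium of cells that need not divide, while a separate group builds the mitotic spindle, moves chromosomes and completes cell division. The mitotic kinesins are made mainly in G2 and M phase, so their RNA in a whole tissue is known to follow its dividing cells. The kinesin genes of the rat carotid body (CB), the small oxygen-sensing organ at the branch point of the carotid artery, were taken by symbol as every gene named Kif with a number and an optional letter from a to c, or Kifc with a number. The rule matched 40 of 32883 genes in the table. Of these, 12 that act in mitosis or cytokinesis were set as the mitotic kinesins, and 28 make up the rest. The 12 are Kif4a, Kif11, Kif14, Kif15, Kif18a, Kif18b, Kif20a, Kif20b, Kif22, Kif23, Kif2c and Kifc1. The split is a fixed list, and some of the 28 may act in division as well. The comparison asked whether the mitotic kinesins and the others differed between the neonatal and the adult CB in the same way.

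CBs of Sprague Dawley rats were dissected at postnatal day 5 (neonates) and day 21 (adults), and RNA of the whole organ was sequenced. No further genotype, allele or treatment set the groups apart, and a share of each litter had been kept until day 21. Each age had 2 libraries, named as biological replicates, with CBs of 6 pups pooled in each neonatal library and of 3 rats in each adult library. These group and pool sizes are those of the labels, and the study's text describes more replicates and larger pools. Both sexes were included, and the sexes in each pool and which pups and adults were litter mates were not given. The p-values therefore measure the spread between pools, and the spread between animals within a pool cannot be seen.

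Libraries held between 36286191 and 39476110 estimated counts assigned to genes. Between 56643 and 59385 of these fell on kinesins. Levels are given as CPM, counts scaled to the library total, after TMM normalization, which sets the scale of each library so that most genes keep the same level. CPM is not divided by transcript length, so a level is compared between ages for the same gene and never between genes. A count of 3 corresponded to between 0.0736 and 0.0845 CPM. Th and Ddc, enzymes of catecholamine synthesis that mark the oxygen-sensing glomus cells, stood between 837 and 1407 CPM and between 1261 and 1608 CPM in the 4 libraries, so the defining markers of the labelled tissue were present. Parathyroid markers summed to 1796 and 212 CPM in the neonates and to 0.0245 and 0.0504 CPM in the adults. In bulk RNA, fewer cells of a type and less RNA per cell cannot be told apart.

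Of the 40 kinesins, 35 reached 1 CPM in 2 or more libraries. These were tested with edgeR's quasi-likelihood F test in a fit over 13843 genes, and p-values were adjusted over all of these genes by the method of Benjamini and Hochberg. All 12 mitotic kinesins were among them, and 23 of the 28 others. A gene is said to have passed the test at an adjusted p under 0.05, and to be a DEG where its fold change was at least 2 as well.

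All 12 mitotic kinesins were higher in neonates, and 11 of them were DEGs. Of all genes tested, 31.2% were higher in neonates and 7.68% were DEGs higher in neonates. The median log2 fold change (neonate minus adult) of the mitotic kinesins was 1.97, a 3.93-fold higher level, against -0.0029 over all genes tested. In each of the 12, both neonatal libraries lay above both adult libraries, an order that 41.3% of all genes tested had. Their summed level was 467 and 431 CPM in the neonates and 124 and 127 CPM in the adults, which is 3.58-fold higher. The other kinesins did not move as a group. Of the 23 tested, 4 were higher and 9 lower in neonates and 10 did not pass, beside 31.1% of all genes tested that were lower. Their median log2 fold change was -0.14, and their summed level was 1138 and 1168 CPM in the neonates and 1333 and 1301 CPM in the adults.

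**Figure D1:**
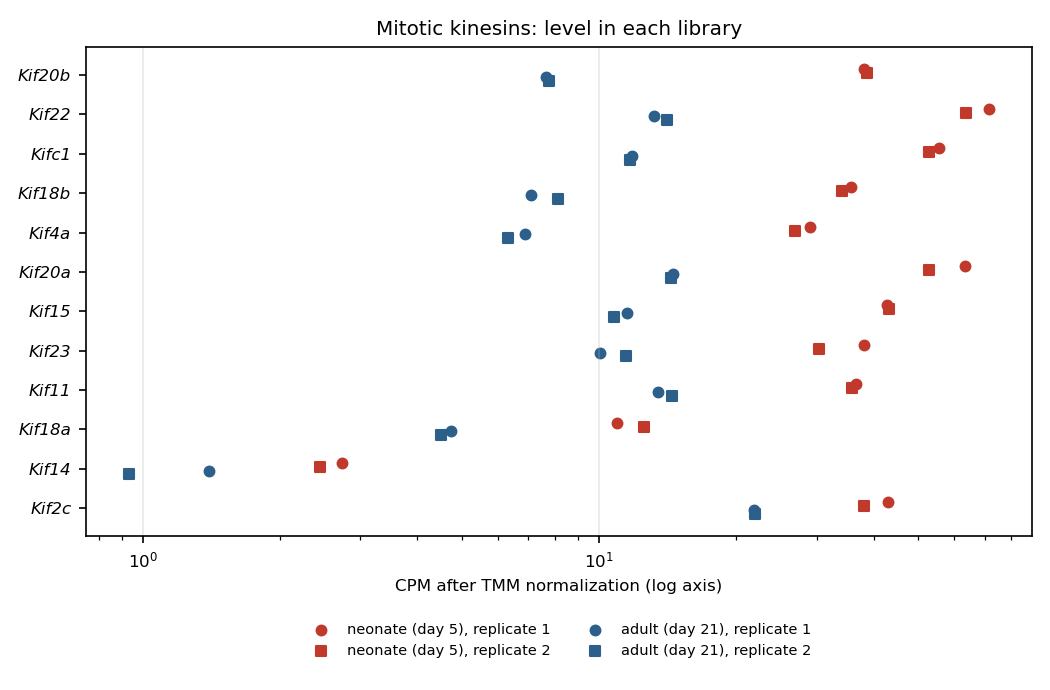
Level of the 12 mitotic kinesins (rows) in each of the 4 libraries, as CPM after TMM normalization on a log axis, with neonates in red, adults in blue and the replicates as circles and squares. In every row both neonatal points lie to the right of both adult points, with the widest gaps for Kif20b and Kif22 and the narrowest for Kif2c.

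Among the mitotic kinesins, the motors that ride on chromosome arms and push them towards the spindle equator are Kif22 and Kif4a. Kif22 (ENSRNOG00000020281) had 71.6 and 63.6 CPM in the neonatal libraries and 13.2 and 14.1 CPM in the adult libraries. The neonatal level was 4.95-fold higher, a log2 fold change of 2.31 (SE 0.10, edgeR adjusted p = 1.6e-06). Kif4a, which also shortens the overlap of microtubules between separating chromosomes, had 28.9 and 26.8 CPM in neonates and 6.87 and 6.32 CPM in adults, 4.22-fold higher (edgeR adjusted p = 5.3e-06). In both genes the ages were far apart and the replicates of an age close together. Kif4a overlaps Pdzd11 in the RefSeq annotation, and Pdzd11 itself had a log2 fold change of 0.33. Kif15 overlaps RGD1311745 (0.63), Kif11 overlaps Ide (-0.19), Kif18a overlaps Mettl15 (-0.47) and Kif20a overlaps Cdc23 (-0.16), and reads from these overlaps may have been counted for either gene. Each of these neighbours differed less between ages than the kinesin beside it. Kif22 also overlaps LOC108349644 and Kif20b overlaps LOC102549070, whose levels are not given here.

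Kif11, Kif15 and Kifc1 hold the spindle in shape. Kif11, the plus-end motor that pushes the spindle poles apart, had 36.5 and 35.8 CPM in neonates and 13.4 and 14.4 CPM in adults (log2 fold change 1.37, SE 0.10, edgeR adjusted p = 1.2e-05). Kif15, which keeps the poles apart beside Kif11, had 42.7 and 43.2 CPM in neonates and 11.5 and 10.8 CPM in adults (log2 fold change 1.94, SE 0.10, edgeR adjusted p = 2.4e-06). Kifc1, a minus-end motor that draws the poles together, had 55.7 and 52.8 CPM in neonates and 11.8 and 11.7 CPM in adults (log2 fold change 2.20, SE 0.097, edgeR adjusted p = 1.5e-06). All 3 were DEGs, and Kif11 was 2.59-fold, Kif15 3.85-fold and Kifc1 4.61-fold higher in neonates.

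Kif18a, Kif18b and Kif2c set the length of microtubules. Kif18a, which damps the movements of aligned chromosomes, had 10.9 and 12.5 CPM in neonates and 4.74 and 4.51 CPM in adults, 2.54-fold higher (log2 fold change 1.34, SE 0.20, edgeR adjusted p = 0.00039). Kif18b, which works at the ends of astral microtubules, had 35.6 and 34.1 CPM in neonates and 7.09 and 8.11 CPM in adults, 4.59-fold higher (edgeR adjusted p = 3.0e-06). Kif2c, a depolymerase at the centromere that corrects faulty attachments, had 42.9 and 38.1 CPM in neonates and 21.87 and 22.02 CPM in adults. Kif2c passed the test but fell short of 2-fold: it was 1.84-fold higher in neonates (log2 fold change 0.88, SE 0.10, 95% interval from 0.66 to 1.11, edgeR adjusted p = 9.3e-05). The interval of Kif20b, from 2.07 to 2.56, did not touch that of Kif2c, so the mitotic kinesins did not all differ between ages by the same factor. The ratio of Kif20b to Kif2c counts within a library, which does not depend on how libraries are scaled, was 0.890 and 1.02 in neonates and 0.350 and 0.354 in adults.

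Kif14, Kif20a, Kif20b and Kif23 serve cytokinesis, the parting of the daughter cells. Kif20b (ENSRNOG00000018929) had 38.2 and 38.7 CPM in neonates and 7.66 and 7.79 CPM in adults, 4.98-fold higher (log2 fold change 2.32, SE 0.11, edgeR adjusted p = 1.7e-06), the largest fold of the 35 kinesins tested. Kif20a, which brings the chromosomal passenger complex to the midzone, had 63.4 and 52.8 CPM in neonates and 14.6 and 14.4 CPM in adults, 4.01-fold higher (edgeR adjusted p = 3.5e-06). Kif23, the motor of the centralspindlin complex, had 38.1 and 30.4 CPM in neonates and 10.1 and 11.4 CPM in adults, 3.19-fold higher (edgeR adjusted p = 2.0e-05). These 3 were clearly parted by age, although the neonatal replicates of Kif20a and Kif23 differed more than those of Kif20b. Kif14, which recruits citron kinase to the midbody, was near the filter, at 2.73 and 2.45 CPM in neonates and 1.40 and 0.932 CPM in adults. Its log2 fold change of 1.15 (SE 0.36, 95% interval from 0.33 to 1.96, edgeR adjusted p = 0.021) was the least certain of the 12: without adult replicate 2 it was 0.89 with an adjusted p of 0.17.

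**Figure D2:**
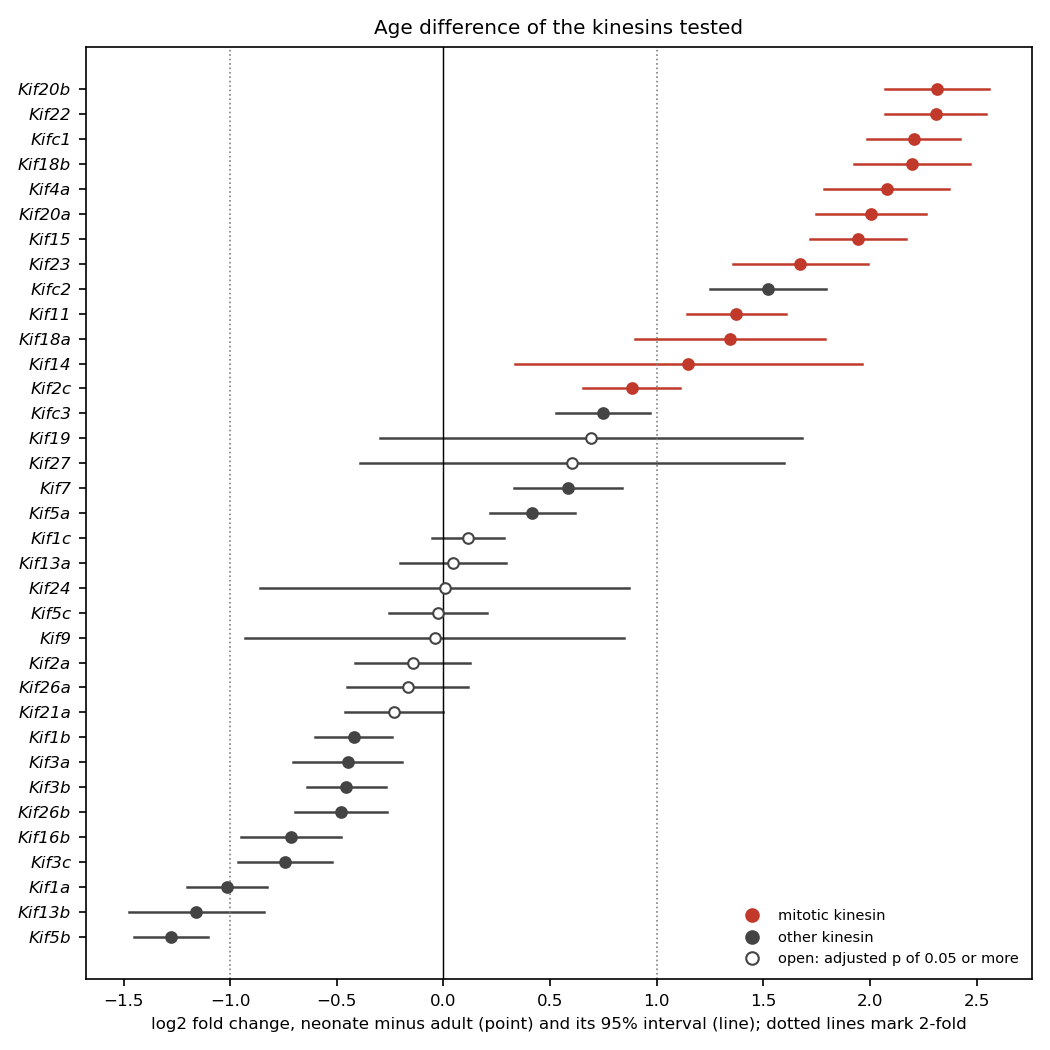
Log2 fold change, neonate minus adult, of the 35 kinesins tested (points) with its 95% interval (lines), mitotic kinesins in red, other kinesins in grey, open points for those with an adjusted p of 0.05 or more and dotted lines at 2-fold. The 12 red points all lie to the right of 0, from 0.88 to 2.32, while the grey points lie on both sides, from -1.28 for Kif5b to 1.52 for Kifc2.

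The genes that work with the mitotic kinesins had the same direction. Of 27 such genes tested, from a list of spindle, kinetochore, midzone and cell cycle genes, 25 were higher in neonates, all 25 as DEGs, and all 27 log2 fold changes were positive. Over all genes tested, 31.2% were higher in neonates and 7.68% were DEGs higher in neonates. The median log2 fold change of the 27 was 1.97. Cenpe, a kinesin of the kinetochore whose name the symbol rule does not catch, had 55.3 and 50.5 CPM in neonates and 11.3 and 12.4 CPM in adults (log2 fold change 2.16, SE 0.11, edgeR adjusted p = 2.0e-06). Cdk1, the kinase that drives entry into mitosis, had 103.2 and 87.3 CPM against 16.1 and 14.4 CPM, a log2 fold change of 2.64 (edgeR adjusted p = 1.5e-06). The largest differences on the list were those of Spc24, a subunit of the Ndc80 kinetochore complex (2.66), Birc5, the survivin of the passenger complex (2.65), and Cdk1. Mki67, a protein that coats mitotic chromosomes and is widely used to mark dividing cells, had 201 and 169 CPM against 35.6 and 37.2 CPM (log2 fold change 2.35, edgeR adjusted p = 1.4e-06). Top2a, which untangles DNA, had 141 and 117 CPM against 37.7 and 39.9 CPM (log2 fold change 1.73, edgeR adjusted p = 4.4e-06). Those that did not pass were Anln (0.41, edgeR adjusted p = 0.11) and Cit (0.40, edgeR adjusted p = 0.17), which organise the contractile ring and are named here after their values were seen. The counts of the 12 mitotic kinesins over those of Mki67 were 2.32 and 2.55 in neonates and 3.49 and 3.40 in adults, so the mitotic kinesins differed by less between ages than Mki67 did.

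Blood-forming, parathyroid and lymphoid cells can divide too, and their markers differed between the same libraries. The 5 erythroid markers found of 6 listed were all higher in neonates, beside 31.2% of all genes tested. They summed to 2989 and 1783 CPM in the neonates and 798 and 784 CPM in the adults. Alas2, the haem synthesis enzyme of red cell precursors, had 38.4 and 22.7 CPM in neonates and 9.13 and 9.63 CPM in adults. Parathyroid markers, at 1796 and 212 CPM, were uneven between the neonatal libraries, in which the mitotic kinesins summed to 467 and 431 CPM. Thymocyte and T cell markers summed to 1.77 and 1.84 CPM in neonates and 7.49 and 7.69 CPM in adults. Cd4, which macrophages of the rat also express, set this direction and made up most of the adult sum, at 7.02 and 7.03 CPM. It was the 1 marker of this list that was tested. The others were low and not all in that direction. Rag1 had 0.169 and 0.640 CPM in neonates and 0.0245 and 0.0504 CPM in adults. Cd3e had 0.113 and 0 CPM in neonates and 0.221 and 0.126 CPM in adults. Ptcra had no more than 3 counts in any library. B cell markers summed to 2.96 and 4.73 CPM in neonates and 0.712 and 0.655 CPM in adults. The part of these cells in the level of the mitotic kinesins was not tested.

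Promoter sequence was read from RefSeq (GRCr8), from 250 bases before to 50 after each annotated start, for 11 of the 12 mitotic kinesins and 19 of the 28 others. Genes that peak in G2 and M phase often carry a CHR motif, bound by the MuvB complex, with 1 or more NF-Y boxes upstream of it. The CHR motif was searched on both strands as TTTGAA. A second form of it, which reads the same on both strands, was TTTAAA. The NF-Y box was searched on both strands as CCAAT. The motifs can share end bases, but no matches overlapped in the kinesin promoters. Kifc1 and Kif20a are shown as mitotic kinesins with both motifs near the start. Kif5b is shown as the kinesin with the largest difference in the other direction, and Kif26b as the 1 of the 19 others with CHR letters. In these 4 genes the annotated start is the outer end of the gene. Each is the 120 bases before the start on the + strand, 5′ to 3′, with the matching letters in capitals: Kifc1 at chr20:5000809-5000928, Kif20a at chr18:26504302-26504421, Kif5b at chr17:56185266-56185385 and Kif26b at chr13:92815307-92815426.
Kifc1: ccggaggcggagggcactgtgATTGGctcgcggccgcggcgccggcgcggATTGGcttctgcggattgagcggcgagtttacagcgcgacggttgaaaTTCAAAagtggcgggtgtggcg
Kif20a: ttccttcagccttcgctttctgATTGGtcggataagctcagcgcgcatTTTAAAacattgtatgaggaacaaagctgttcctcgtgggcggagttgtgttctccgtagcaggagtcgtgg
Kif5b: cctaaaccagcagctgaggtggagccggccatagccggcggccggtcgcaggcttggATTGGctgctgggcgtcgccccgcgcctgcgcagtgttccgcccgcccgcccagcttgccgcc
Kif26b: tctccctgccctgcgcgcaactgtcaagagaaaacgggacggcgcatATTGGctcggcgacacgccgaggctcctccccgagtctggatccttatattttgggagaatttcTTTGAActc

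In Kifc1 the CHR letters began at -22, counted from the first base before the start as -1, with NF-Y boxes at -99 and -70. In Kif20a they began at -72, with a box at -98. Both genes were over 4-fold higher in neonates. Kif5b, which was lower in neonates, had an NF-Y box at -63 and no CHR letters in the window. Kif26b had both, the box at -73 and the CHR letters at -9, and was nonetheless 1.40-fold higher in adults, so the letters alone did not part the genes by direction.

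Over the 12 promoters of the 11 mitotic kinesins in the table, 9 held a CHR motif (75.0%), 7 held an NF-Y box (58.3%) and 7 held both (58.3%). Over the 19 promoters of the other kinesins, Kif26b was the 1 match for the CHR motif (5.26%), and 6 held an NF-Y box (31.6%). Kifc2, Kifc3, Kif7 and Kif5a, the 4 other kinesins that were higher in neonates, had no promoter among the 19. The share of the others thus covers none that passed as higher in neonates. The promoters of all genes tested held a CHR motif in 18.9%, an NF-Y box in 36.6% and both in 7.33%. The mitotic partners stood at 95.7% for the CHR motif and 69.6% for the NF-Y box. No CHR letters were found for Kif18a, Kif18b and 1 of the 2 starts of Kif2c. The tabulated start lay 2697 bases inside the gene for Kif18b and 3714 for that Kif2c start. It also lay inside the gene for Kif11 (41951 bases) and Kif23 (1327 bases), which are counted among the promoters with both motifs. Over the kinesins the tabulated start was the outer gene end in 11 of 31 promoters. Mean GC content was 59.8% in the mitotic and 65.2% in the other kinesin promoters, and the part of GC content in the shares was not tested. These matches are a description of the letters, and no binding was measured.

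**Figure D3:**
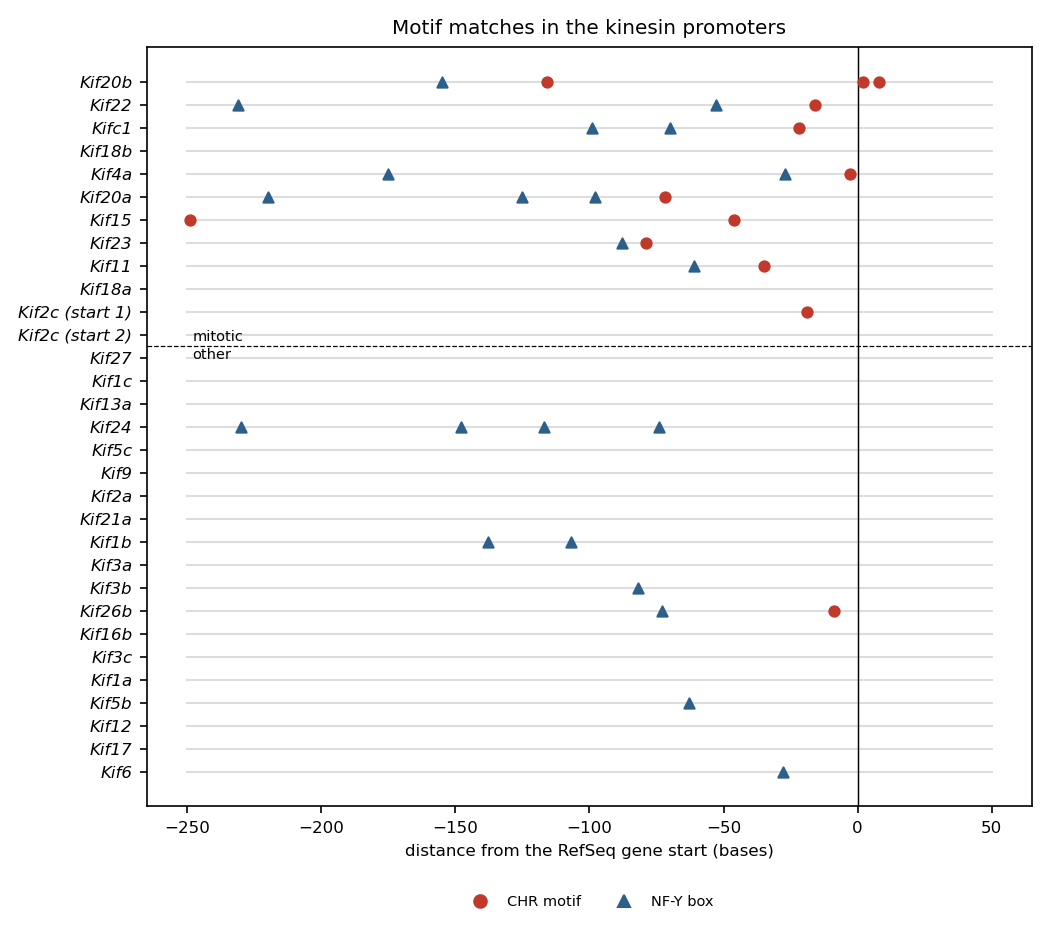
Matches to the CHR motif (red circles) and the NF-Y box (blue triangles) in the promoters of the mitotic kinesins (above the dashed line) and the other kinesins (below it), by distance in bases from the RefSeq start. CHR matches lie in 9 of 12 mitotic promoters, mostly close to the start, and in 1 of 19 others. Kifc2, Kifc3, Kif7 and Kif5a, which were higher in neonates, had no promoter to show.

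Of the other kinesins, 1 DEG was higher in neonates (Kifc2) and 3 were lower (Kif5b, Kif13b and Kif1a), beside 13.2% of all genes tested that were DEGs lower in neonates. In 5 of the 23 tested both neonatal libraries lay above both adult libraries, and in 11 they lay below, an order that 41.7% of all genes tested had. The 12 cargo motors tested of 13 had a median log2 fold change of -0.13, with 3 higher (25%) and 5 lower (41.7%). The 8 kinesin-2 and ciliary motors tested of 10 had a median of -0.02, with 1 higher (12.5%) and 3 lower (37.5%). Of the 3 remaining kinesins tested of 5, 1 was lower (33.3%). The shares over all genes tested were 31.2% higher and 31.1% lower.

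**Figure D4:**
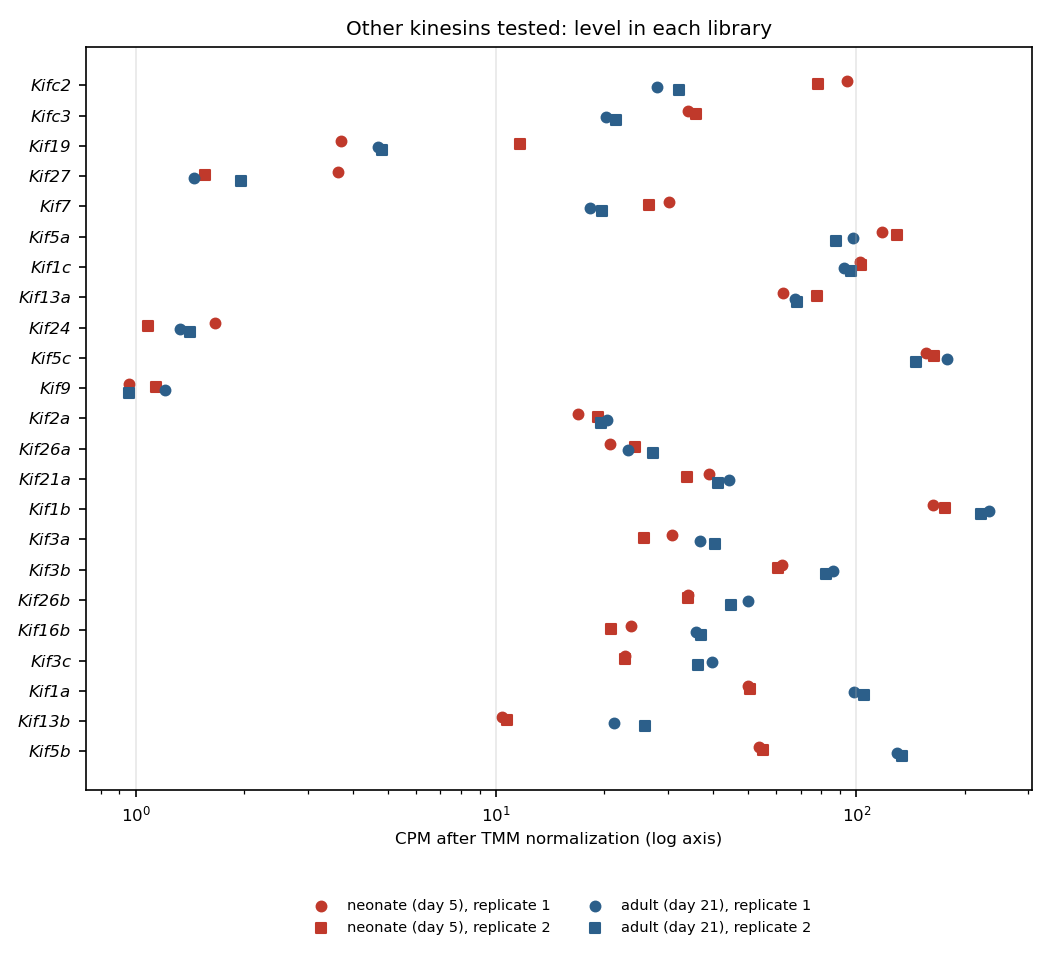
Level of the 23 other kinesins tested (rows) in each of the 4 libraries, as CPM after TMM normalization on a log axis, with neonates in red, adults in blue and the replicates as circles and squares. The colours lie apart with the neonates to the right for Kifc2, with the adults to the right for Kif5b, Kif13b and Kif1a, and are mixed in rows such as Kif5c and Kif13a; the neonatal replicates of Kif19 and Kif27 lie far apart.

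The 3 heavy chains of conventional kinesin (kinesin-1), which carries mitochondria, lysosomes and vesicles towards the plus ends of microtubules, went different ways. Kif5b (ENSRNOG00000017466), the heavy chain found in most cell types, had 53.6 and 54.9 CPM in neonates and 129.6 and 134 CPM in adults. It was 2.43-fold higher in adults, a log2 fold change of -1.28 (SE 0.077, edgeR adjusted p = 4.6e-06), the largest difference in that direction among the kinesins. Kif5a, a heavy chain enriched in neurons, had 118 and 129.9 CPM in neonates and 98.0 and 87.6 CPM in adults, 1.33-fold higher in neonates (log2 fold change 0.42, SE 0.088, edgeR adjusted p = 0.0030). Kif5c, also enriched in neurons, had 156 and 164 CPM in neonates and 179 and 146 CPM in adults, with a log2 fold change of -0.02 (95% interval from -0.25 to 0.20, edgeR adjusted p = 0.84). The ages overlapped for Kif5c and lay apart for Kif5a and Kif5b. The count ratio of Kif5b to Kif5a within a library was 0.455 and 0.423 in neonates and 1.32 and 1.53 in adults, 3.24-fold higher in adults. The ratio of Kif5b to Kif5c was 0.345 and 0.335 in neonates and 0.724 and 0.915 in adults.

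Kif1a, Kif1b and Kif1c belong to kinesin-3, fast motors of vesicles. Kif1a (ENSRNOG00000023993), which carries synaptic vesicle precursors and dense core vesicles in neurons and endocrine cells, had 49.9 and 50.8 CPM in neonates and 98.7 and 105.1 CPM in adults. It was 2.02-fold higher in adults (log2 fold change -1.02, SE 0.083, edgeR adjusted p = 1.8e-05), just past the 2-fold limit. Kif1b, which carries mitochondria and synaptic vesicle precursors, had 163 and 177 CPM in neonates and 233 and 222 CPM in adults, 1.34-fold higher in adults (log2 fold change -0.42, SE 0.080, edgeR adjusted p = 0.0017). Kif1c, a widely expressed member, had 102.4 and 103.0 CPM in neonates and 92.6 and 96.9 CPM in adults, with a log2 fold change of 0.12 (95% interval from -0.05 to 0.29, edgeR adjusted p = 0.21). Kif1a over Kif1c counts stood at 0.488 and 0.494 in neonates and 1.07 and 1.08 in adults. For Kif1b over Kif1c they stood at 1.597 and 1.715 in neonates and 2.52 and 2.29 in adults, a smaller difference of 1.45-fold. Kif13b (ENSRNOG00000013089), a further kinesin-3 that carries membrane-bound cargo, had 10.4 and 10.7 CPM in neonates and 21.2 and 25.9 CPM in adults, 2.23-fold higher in adults (log2 fold change -1.16, SE 0.14, edgeR adjusted p = 0.00013). Kif16b, a motor of early endosomes named after its value was seen, was 1.64-fold higher in adults (edgeR adjusted p = 0.00034).

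Kifc2 and Kifc3 carry their motor at the C-terminal end and belong to the minus-end-directed group. Kifc2 (ENSRNOG00000060123), known from neurons, had 94.4 and 78.1 CPM in neonates and 28.0 and 32.1 CPM in adults. It was 2.87-fold higher in neonates (log2 fold change 1.52, SE 0.12, edgeR adjusted p = 1.5e-05), and was thus the 1 kinesin outside the mitotic group with a difference of their size and direction. Kifc2 overlaps Foxh1 in the annotation, and reads from the overlap may have been counted for either gene. Kifc3, named after its value was seen, had 34.05 and 35.99 CPM in neonates and 20.1 and 21.5 CPM in adults, 1.68-fold higher in neonates (edgeR adjusted p = 0.00020). The count ratio of Kifc2 to Kifc3 was 2.77 and 2.17 in neonates and 1.39 and 1.49 in adults. All 3 C-terminal motors in the table, Kifc1 among them, were thus higher in neonates, beside 31.2% of all genes tested. They were 1 mitotic motor and 2 transport motors.

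**Figure D5:**
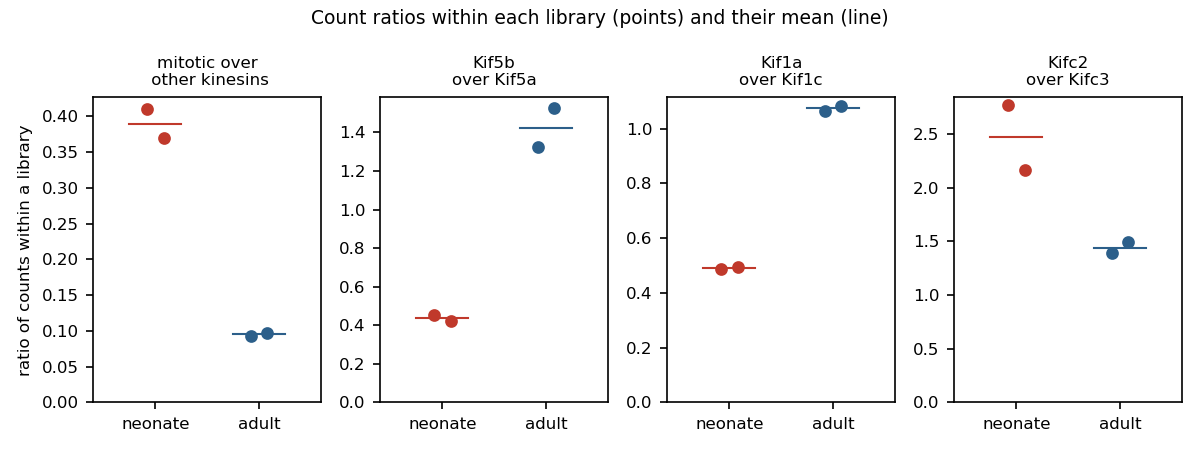
Count ratios within each library (points, 2 per age) and their mean (lines) for the mitotic over the other kinesins, Kif5b over Kif5a, Kif1a over Kif1c and Kifc2 over Kifc3, each on an axis that starts at 0. The first and last ratios are higher in neonates and the middle pair higher in adults, and in none of the 4 do the ages overlap.

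The mitotic over the other kinesins gave a count ratio of 0.411 and 0.369 in neonates and 0.0932 and 0.0973 in adults, 4.10-fold higher in neonates. These ratios were chosen after the values had been seen and carry no test: with 2 libraries against 2, an exact two-sided permutation test cannot give a p below 0.333. A ratio of counts also holds the ratio of transcript lengths, so only its difference between ages can be read.

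Neuron markers moved with the ages: 7 of the 8 listed were higher in neonates and 0 lower, beside 31.2% and 31.1% of all genes tested. They summed to 3113 and 2876 CPM in neonates and 2218 and 1820 CPM in adults. Of the named kinesins known from neurons, Kif5a and Kifc2 had the direction of these markers, Kif1a and Kif3c had the opposite one, and Kif5c did not pass. Glomus markers summed to 5695 and 4266 CPM in neonates and 4861 and 4028 CPM in adults, with ranges that overlapped. The part of cell composition in the levels of these kinesins was not tested.

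Kinesin-2 moves intraflagellar transport trains along the cilium and carries other cargo in axons. Its motor pairs Kif3b or Kif3c with Kif3a, and Kifap3 joins the pair to cargo. Kif3a had 30.8 and 25.8 CPM in neonates and 36.8 and 40.5 CPM in adults (log2 fold change -0.45, SE 0.11, edgeR adjusted p = 0.0074). Kif3b had 62.3 and 60.5 CPM in neonates and 85.9 and 82.6 CPM in adults (log2 fold change -0.46, SE 0.082, edgeR adjusted p = 0.0012). Kif3c, the partner best known from neurons, had 22.8 and 22.7 CPM in neonates and 39.7 and 36.3 CPM in adults (log2 fold change -0.74, SE 0.097, edgeR adjusted p = 0.00020). All 3 were lower in neonates with no overlap between ages, an order that 41.7% of all genes tested had, and none reached 2-fold. The count ratio of Kif3c to Kif3a was 0.738 and 0.881 in neonates and 1.08 and 0.896 in adults, with a narrow gap between the ages. Kif3c overlaps Asxl2, which was lower in neonates as well (log2 fold change -1.36, edgeR adjusted p = 0.00095). Reads from this overlap may have been counted for either gene. Kifap3 did not pass, with a log2 fold change of -0.14 (edgeR adjusted p = 0.12).

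Of the kinesins tied to cilia, Kif7, a regulator of Hedgehog signalling at the tip of the cilium, had 30.3 and 26.6 CPM in neonates and 18.3 and 19.7 CPM in adults, higher in neonates (log2 fold change 0.58, edgeR adjusted p = 0.0018). Kif7 overlaps Ticrr, a DNA replication gene with 2.87 and 4.09 CPM in neonates and 0.663 and 0.882 CPM in adults, and reads from the overlap may have been counted for either gene. Kif19 and Kif27, motors of motile cilia, varied more between the neonatal libraries than between ages. Kif19 had 3.72 and 11.7 CPM in neonates and 4.71 and 4.81 CPM in adults, and its log2 fold change of 0.69 (95% interval from -0.30 to 1.68, edgeR adjusted p = 0.20) became 1.29 without neonate replicate 1 and -0.35 without neonate replicate 2. Kif27 had 3.63 and 1.56 CPM in neonates and 1.45 and 1.97 CPM in adults, and its log2 fold change of 0.60 (edgeR adjusted p = 0.26) became -0.13 and 1.10 in the same order. Kif27 overlaps Kif27l1 in the annotation, and reads from the overlap may have been counted for either gene. Kif7, Kif19 and Kif27 are named after their values were seen.

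None of the remaining tested kinesins reached 2-fold. Kif26b, which lacks motor activity and takes part in kidney and limb development, had 34.2 and 34.0 CPM in neonates and 50.2 and 45.0 CPM in adults, 1.40-fold higher in adults (edgeR adjusted p = 0.0021), and is named after its value was seen. The other 6 that did not pass (Kif13a, Kif24, Kif9, Kif2a, Kif26a and Kif21a) had log2 fold changes between -0.23 and 0.04. The nearest to the limit was Kif21a, at 39.0 and 33.9 CPM in neonates and 44.3 and 41.3 CPM in adults (log2 fold change -0.23, edgeR adjusted p = 0.075), which passed as lower in neonates with a replicate block, at a mean of at least 5 CPM, with library size alone and without neonate replicate 1 (adjusted p from 0.0027 to 0.047).

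The 5 kinesins below the filter were not tested. Kif17, a dendritic and ciliary motor, had 52 and 34 counts in neonates and 27 and 29 in adults. Kif21b, a neuronal motor, had 35 and 24 counts in neonates and 22 and 42 in adults, and Kif6 had 7 and 34 counts in neonates and 16 and 26 in adults. Kif12 had 0 and 2 counts in neonates and 0 in both adult libraries, and Kif2b had 0 counts in 3 libraries and 1 in adult replicate 2. None of these can be called absent, since a count of 0 allows up to 3 counts of a library.

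Light chains and adaptors couple kinesin-1 and kinesin-3 to cargo, and the list used here also holds Kifap3 of kinesin-2 and the motor-blocking Kifbp. Of 20 tested, 5 were higher (25%) and 3 lower (15%) in neonates, beside 31.2% and 31.1% of all genes tested, and the median log2 fold change was -0.05. Among the kinesin light chains, Klc1 (0.29, edgeR adjusted p = 0.0075) and Klc4 (0.60, edgeR adjusted p = 0.00067) were higher in neonates, and Klc2 (-0.04, edgeR adjusted p = 0.63) and Klc3 (-0.17, edgeR adjusted p = 0.54) did not pass. With library size alone in place of TMM, Klc1 lost its call (0.04, adjusted p = 0.65) and Klc2 was lower in neonates (-0.29, adjusted p = 0.012). Rhot2, a mitochondrial GTPase that links mitochondria to kinesin, had 113 and 103 CPM in neonates and 50.8 and 56.7 CPM in adults (log2 fold change 1.01, edgeR adjusted p = 3.1e-05). Hap1, a huntingtin-associated adaptor, was also higher in neonates (0.88, edgeR adjusted p = 6.6e-05). Madd, the adaptor that ties synaptic vesicle precursors to Kif1a and Kif1b, had 23.3 and 26.2 CPM in neonates and 48.4 and 47.4 CPM in adults (log2 fold change -0.95, edgeR adjusted p = 5.5e-05). Madd therefore had the same direction as both of its motors, without overlap between ages. Kifbp, which binds and blocks kinesin motors, did not pass (0.03, edgeR adjusted p = 0.84).

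Cytoplasmic dynein is the main motor towards the minus ends of microtubules, and its subunits and adaptors were found in both directions. Of 23 tested, 9 were higher (39.1%) and 8 lower (34.8%) in neonates, shares near those of all genes tested (31.2% and 31.1%), and the median log2 fold change was -0.11. Dync1h1, the motor heavy chain itself, had a log2 fold change of -0.26 (edgeR adjusted p = 0.028), which lost its call without either neonatal replicate or adult replicate 1. The largest differences were those of the dynactin subunit Dctn4 (-1.41, edgeR adjusted p = 1.5e-05), the adaptor Bicd1 (-1.37, edgeR adjusted p = 0.00085) and the light chain Dynlt1 (1.06, edgeR adjusted p = 1.5e-05). Of 17 intraflagellar transport genes tested, the cargo system of kinesin-2, 4 were higher (23.5%) and 5 lower (29.4%), which is also near the shares of all genes tested, with a median of -0.05 and none at 2-fold. The largest were Wdr19 (-0.72, edgeR adjusted p = 0.0010), Ift20 (0.72, edgeR adjusted p = 0.00017) and Ttc21b (-0.59, edgeR adjusted p = 0.0042). The lists of transport genes thus lay near the median of all genes tested, with members on both sides, where the mitotic kinesins and their partners lay on 1 side.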

How the data were processed

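Deposited by the authors were estimated counts of genes from STAR and Salmon 1.5.2 on Rnor_6.0 and summed over transcripts, for 2 libraries per age, and the strandedness of the counting is not given in the sources used here. Columns of per-sample values left unused numbered 0. Counts were rounded, 664 genes not annotated as protein-coding were left out, and the 13843 genes reaching 1 CPM in 2 or more libraries were tested. Neonates were compared with adults in R 4.3.3 by edgeR 4.0.16 (quasi-likelihood, TMM, no covariates, Benjamini-Hochberg over all genes), tested on simulated data beforehand. SEs come from the F statistic and intervals are 95%. Reads carry no molecular identifiers, so the floor of 3 counts covers counting error only, while SEs and p-values cover the spread between libraries. Replicate libraries differed beyond sampling noise (chi-square per degree of freedom 32.6 and 15.4).

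The members, lists and tests were chosen with earlier results of these data known. Named genes are the mitotic kinesins, other kinesins that were DEGs, Kif1a to Kif1c, Kif3a to Kif3c, Kif5a to Kif5c, fixed partners, the 3 largest differences of each partner list and members not tested; further names are said to be chosen after their values. Alternatives were DESeq2 1.42.0, limma-voom (limma 3.58.1), RLE factors, library size alone, TMM without mitochondrial and ribosomal genes, other filters, all genes kept, a replicate block and each library left out. Overlapping genes and promoters come from RefSeq GRCr8, another assembly than that of the counts, so no coordinates of the counted genes are given.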

Additional observations from a re-analysis of the deposited data

How the results depend on the processing

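Between 11 and 12 mitotic kinesins were higher in neonates under the 13 alternatives, 10 or 11 as DEGs, and none was lower. Kif14 did not pass without adult replicate 2 or with library size alone (adjusted p = 0.17 and 0.053), and was not tested at a mean of at least 5 CPM. Library size alone moved the median of all genes to -0.25 and the split of calls from 4325 higher and 4300 lower to 2587 and 5997. Under it the medians became 1.73 for the mitotic kinesins, 1.73 for the mitotic partners, -0.39 for the other kinesins, -0.29 for the adaptors, -0.36 for dynein and -0.29 for intraflagellar transport. Under it, too, 11 adaptors were lower, 4 dynein genes higher, and 2 intraflagellar transport genes higher and 9 lower. Kif5a did not pass (0.17, adjusted p = 0.15), Klc1 did not pass (0.042, adjusted p = 0.65), and Kif2a (-0.39), Kif26a (-0.41), Kif21a (-0.48), Klc2 (-0.29) and Kifap3 (-0.39) passed as lower in neonates, with adjusted p from 0.0027 to 0.025, while Kif1c (-0.13), Kif13a (-0.20), Kif24 (-0.24) and Kifbp (-0.22) turned sign. With no filter the medians were -0.059 for the other kinesins, -0.071 for the adaptors and -0.072 for intraflagellar transport, and Kif24 stood at -0.020. At a mean of at least 5 CPM they were -0.24, -0.080 and -0.082, with 6 adaptors lower and Kifbp at -0.0095, and Kif21a (adjusted p = 0.047) and Kifap3 (adjusted p = 0.0497) passed as lower. By limma-voom Kif24 stood at -0.025. The cause of these changes was not tested.

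Leaving out 1 library at a time, the DEGs higher among the other kinesins numbered 1 to 2, 2 without either neonatal replicate through Kif19 or Kif27, and adaptors lower 3 to 5. Kif1a fell under 2-fold without adult replicate 2. Medians ranged from 1.91 to 2.04 for the mitotic kinesins, 1.82 to 2.01 for their partners, -0.23 to -0.12 for the other kinesins, -0.071 to -0.032 for the adaptors, -0.11 to -0.035 for dynein and -0.093 to -0.033 for intraflagellar transport. The log2 fold change ranged from -0.35 to 1.29 for Kif19, -0.13 to 1.10 for Kif27, -0.11 to 0.19 for Kif13a, -0.33 to 0.29 for Kif24, -0.16 to 0.13 for Kif5c and -0.092 to 0.16 for Kifbp. Signs turned for Kif24 (-0.33), Kif27 (-0.13), Kif5c (0.015), Kif9 (0.080) and Kifbp (-0.034) without neonate replicate 1, for Kif19 (-0.35) and Kif13a (-0.11) without neonate replicate 2, for Kif24 (-0.039), Kif5c (0.13) and Kif9 (0.13) without adult replicate 1, and for Kifbp (-0.092) without adult replicate 2. In the fit to all 4 libraries none of these genes passed the test. The ages share the replicate numbers 1 and 2, but the deviations of replicate 1 correlated at -0.0154 across genes, so the numbers are not taken to pair the libraries. With a replicate block 5 adaptors were lower, 12 mitotic kinesins higher and Kif24 at -0.019, and Kif21a passed (adjusted p = 0.037), as it did without neonate replicate 1 (adjusted p = 0.024). Depth limits Kif12 and Kif2b, at or under 3 counts.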
